A study of Sus scrofa with 35 samples.

Results

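The F1 animals described here were crosses between Large White, a fast-growing commercial pig, and Creole, a local Caribbean breed kept in hot climates. Gene expression was measured in their longissimus dorsi, the long muscle of the back, either under thermoneutrality (TN) or after heat stress (HS). The arrays were chosen by their sample titles alone, and they were 11 of the 35 arrays of the series: 5 F1 HS and 6 F1 TN. Each array carried the RNA of 1 castrated male growing pig, and the other 24 arrays (12 Creole and 12 Large White pigs, also split between TN and HS) entered the fits and served as the comparison.

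Per the sample labels, TN meant 24 °C and HS meant 30 °C. The growth protocol instead described an exposure of 5 days at 32 °C. The study's methods also give 32 °C, with not all HS pigs slaughtered after the same number of days. The labels thus disagree with both on the challenge temperature. According to the methods, slaughter of the TN pigs preceded the warming of the room and that of the HS pigs followed it, the groups were housed apart, and litters were spread over the pens. Slaughter day, age and pen therefore cannot be told apart from temperature. The litter, pen and slaughter day of each pig are not in the labels, so the arrays were treated as independent pigs, and p-values measure the spread between these arrays.

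Skeletal muscle burns carbohydrate and fat, and the pyruvate dehydrogenase complex is the gate through which pyruvate from glucose enters the mitochondria. Pigs sweat little, and under heat they eat less and pant. In overheated cells, heat shock proteins act as chaperones that keep other proteins folded, and genes under control of fasting hormones, glucocorticoids and thyroid hormone also set the fuel use of muscle.

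Expression values below are log2 of the quantile-normalised spot intensity, and a difference is HS minus TN on that scale, from a limma fit of all 35 arrays with Benjamini-Hochberg adjustment over the 41517 probes kept. The share of probes well above background ranged from 63.5% to 73.7% over the F1 arrays. The share well above background, array brightness, local background and spike-in controls did not pass the exact permutation test between HS and TN (2-sided exact p from 0.158 to 0.481, and from 0.301 to 0.521 after Benjamini-Hochberg adjustment over 13 measures). All 18 skeletal muscle fibre markers were measured, and their mean level lay between 17.59 and 17.81 on every F1 array. The median over all genes was 9.14, but levels of different probes share no scale, so these values describe the tissue and do not test its label. F1 TN replicate 2 stood apart from the other F1 arrays, with a median Pearson r of 0.977 with its own group against 0.988 to 0.991 for the other 10 arrays, across probes, which are not independent. The F1 arrays lay on 4 slides, each holding both HS and TN, and slide 2 compared HS replicate 3 with TN replicate 2 alone.

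In F1 muscle, the probes that passed the test were 2 of 41517 (0.00482%), and both were named STRA6, the cell surface receptor that takes up retinol from its carrier in blood. The arrays carry 60-base probes, and the files give 4 kept probes the name STRA6. The first 30 bases of each are shown, since the letters decide how the result can be read. Capitals mark the stretch shared with the other probe that passed.

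O11448: TATGCCTTTAGATACTATGAAAGAGGTCAG
A_72_P118516: tttgTATGCCTTTAGATACTATGAAAGAGG
A_72_P477815: aacttcttgaagatggaggtcagccagtcg
A_72_P102201: agactccaagagggccctggaagattctgg

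The probes O11448 and A_72_P118516 shared an unbroken run of 41 bases, shifted by 4 positions, so they read the same stretch of RNA and are not 2 independent results. The other probes shared at most 8 bases in a row with O11448. O11448 read 6.33, 5.90, 6.13, 5.65, 6.26 and 6.23 on the TN arrays and 7.85, 6.71, 7.40, 8.19 and 7.29 on the HS arrays. Every HS array lay above every TN array. STRA6 at this probe rose 2.65-fold, from 6.08 ± 0.26 (SD, n = 6) to 7.49 ± 0.57 (SD, n = 5), a log2 change of 1.41 (SE 0.22, adjusted p = 0.0144). It was higher within each of the 4 slides, by 0.95 to 2.30 log2, and by 1.41 with slide as a block (adjusted p = 0.0347).

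The overlapping STRA6 probe A_72_P118516 rose by 1.26 (SE 0.22, adjusted p = 0.0365), from 5.62 ± 0.21 (SD, n = 6) to 6.88 ± 0.61 (SD, n = 5), again with no overlap of the groups. This call was lost with slide as a block (adjusted p = 0.0687) and with the F1 arrays alone (adjusted p = 0.211). Its signal was well above background on 3 of the 6 TN arrays and on all 5 HS arrays. The probes of unrelated sequence gave other values: A_72_P477815 differed by 0.13 (SE 0.18, adjusted p = 0.930) and A_72_P102201 by 0.08 (SE 0.17, adjusted p = 0.965), and both overlapped between the groups. A_72_P102201 was the brighter of these, at 7.77 in TN and 7.84 in HS, and was well above background on all 11 arrays, so the rise was measured at 1 stretch of sequence and by no other STRA6 probe. A_72_P477815 was well above background on only 1 TN and 4 HS arrays. The call at O11448 was lost when HS replicate 1, 3 or 4 or TN replicate 4 was left out (log2 change 1.23 to 1.6 over all 11 omissions, adjusted p 0.000499 to 0.0877), and in a fit of the F1 arrays alone (adjusted p = 0.210). Scaling to the 75th percentile or to the spike-in controls also ended it (adjusted p = 0.134 and 0.0843).

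**Figure D1:**
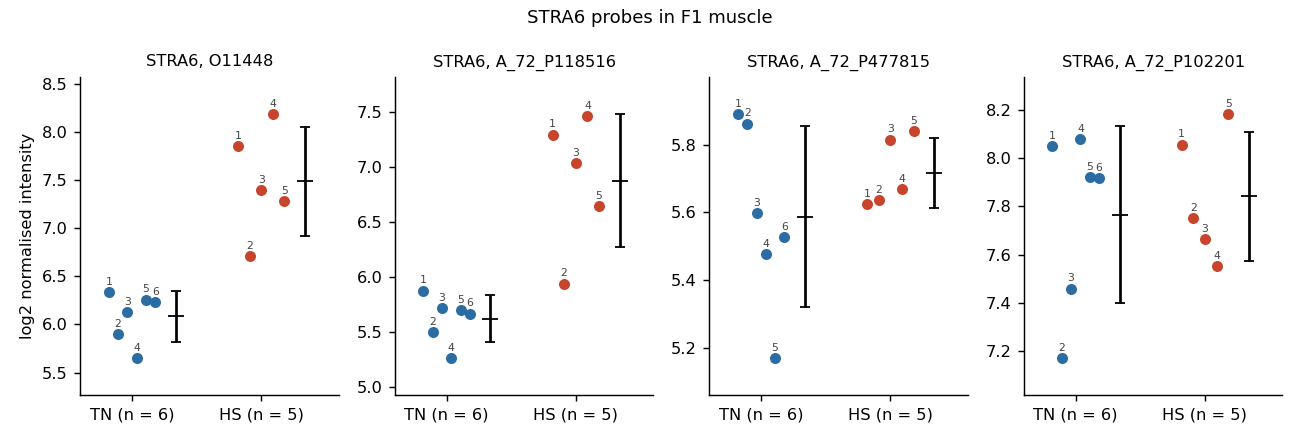
Log2 normalised intensity (y axis) of the 4 kept STRA6 probes in the 6 TN and 5 HS arrays of F1 pigs (points, digits give the replicate), with mean and SD beside them. The HS arrays lie above the TN arrays at O11448 and A_72_P118516, which overlap in sequence, and among them at the others.

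Below these, the smallest adjusted p belonged to ENO2, an enolase of glycolysis best known from neurons, which was named after its values were seen. It was 0.66 higher in HS (SE 0.12, adjusted p = 0.0596) with no overlap of the groups. The unnamed probe A_72_P118156 came next, at −0.92 (adjusted p = 0.0989), and was the only lower and the only overlapping one of the 7 probes at an adjusted p under 0.10. OCIAD2 (0.91), AIG1 (0.75) and PLTP, a phospholipid transfer protein of plasma (0.79), had the same adjusted p, without overlap. The TN mean of PLTP was low, at 5.28, below the 5.62 of the STRA6 probe A_72_P118516. At an unadjusted p under 0.05, 2048 probes were higher in HS (4.93% of those tested) and 1396 were lower (3.36%). The 5 HS and 6 TN arrays did not overlap at 474 probes (1.14%): in HS, 325 of them read higher and 149 read lower. The median SE of a difference was 0.14 log2 and the median absolute difference 0.10. At a median SE of 0.13, the same fit called 792 probes in Creole and 2 in Large White, where the median absolute differences were both 0.14. The genes described from here on did not pass the adjusted threshold, and their values are given as measured.

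The genes with the 10 largest differences each way were taken at an unadjusted p under 0.01, each by its probe with the smallest p. The largest was that of PDK4, the kinase that switches off pyruvate dehydrogenase and so spares glucose. Its probe A_72_P629400 lay between 8.89 and 13.39 on the TN arrays (median 11.39) and at 7.83, 7.21, 7.99, 9.44 and 6.52 on the HS arrays. All HS arrays except replicate 4 were below all TN arrays, and TN replicate 6 was the lowest of its group. The difference was −3.51 (SE 0.85, adjusted p = 0.157), an HS to TN ratio of 0.088. PDK4 was lower within every slide, by −3.92, −2.16, −2.93 and −4.22 log2. Of its 10 other kept probes, 9 shared no run of 20 bases with it, and these read between −3.59 and −2.55, each at an unadjusted p under 0.05. Without TN replicate 6 the difference was −3.99 and passed (adjusted p = 0.0471).

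ANGPTL4, an inhibitor of lipoprotein lipase that is induced by fasting and fatty acids, read 9.11, 8.30, 8.10, 9.02, 8.46 and 6.99 in TN against 6.76, 7.37, 6.61, 7.92 and 6.0 in HS. TN replicate 6 fell among the HS arrays here too. The difference was −1.40 (SE 0.44, adjusted p = 0.271), negative on all 4 slides, and its brightest probe, O6077, gave −1.72 (SE 0.57). KLF11, a transcription factor of the Krüppel-like family, lay between 7.24 and 9.29 in TN (median 8.44) and between 6.88 and 7.49 in HS, a difference of −1.24 (SE 0.28, adjusted p = 0.131). It passed without TN replicate 6 (−1.46, adjusted p = 0.0197). PDK4, ANGPTL4 and KLF11 thus shared the same low TN array.

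Other genes among the 10 largest negative differences separated the groups completely. BTC, or betacellulin, a ligand of the epidermal growth factor receptors, lay between 10.30 and 11.27 in TN (median 10.62) and at 9.67, 8.74, 9.46, 9.56 and 9.91 in HS, a difference of −1.25 (SE 0.30, adjusted p = 0.145). Its other kept probe shared no run of 20 bases and gave −0.995 (SE 0.28, groups overlapping). WFIKKN2, a secreted protein that binds myostatin, lay between 9.96 and 11.16 in TN (median 10.71) and at 9.55, 9.41, 9.79, 9.27 and 9.39 in HS, a difference of −1.15 (SE 0.25, adjusted p = 0.112). It passed without TN replicate 6 (−1.24, adjusted p = 0.0471). HBB, the beta chain of haemoglobin, lay between 8.35 and 10.07 in TN (median 8.82) and at 7.99, 8.34, 8.01, 6.50 and 6.84 in HS. The difference was −1.51 (SE 0.40, adjusted p = 0.194), but TN replicate 5 (8.347) and HS replicate 2 (8.339) nearly met.

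MT1A, a metal-binding metallothionein, differed by −2.29 (SE 0.76, adjusted p = 0.316), and its HS arrays spread widely, between 7.39 and 11.60. SLC38A4, an amino acid transporter, differed by −0.94 (SE 0.33, adjusted p = 0.355), CXCL2, a chemokine of neutrophils, by −0.93 (SE 0.33, adjusted p = 0.355), and CA4, a carbonic anhydrase of the capillary wall, by −0.86 (SE 0.25, adjusted p = 0.233). In these 4 genes the groups overlapped. For MT1A, SLC38A4 and CXCL2, the other kept probe of unrelated sequence read −0.42, −0.31 and −0.59, none at an unadjusted p under 0.05.

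Among the 10 largest positive differences chosen in this way was C3, the central complement protein. It lay between 8.93 and 10.50 in TN (median 9.35) and at 10.92, 10.81, 11.12, 10.95 and 10.30 in HS, so that only TN replicate 1 reached into the HS range (difference 1.26, SE 0.35, adjusted p = 0.207). Each of its 4 other probes of unrelated sequence was higher at an unadjusted p under 0.05. CX3CR1, the fractalkine receptor of monocytes and macrophages, lay between 7.66 and 9.93 in TN and between 9.53 and 10.60 in HS, a difference of 1.56 (SE 0.44, adjusted p = 0.208). Its other kept probe, of unrelated sequence, was 0.47 higher, at an unadjusted p under 0.05. IL18, a cytokine, was 1.29 higher (SE 0.40, adjusted p = 0.271), and CLU, the extracellular chaperone clusterin, 1.51 higher (SE 0.50, adjusted p = 0.304). In C3, CX3CR1, CLU and IL18, TN replicate 1 was at or near the top of its group, and slide 1, where that array lies, gave the smallest HS minus TN value of the 4 slides (0.37, 0.11, −0.20 and 0.19).

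S100A1, a calcium-binding protein of striated muscle, read 13.35, 12.80, 14.25, 11.73, 13.59 and 13.91 in TN and 15.07, 15.12, 15.36, 13.99 and 15.11 in HS, a difference of 1.66 (SE 0.44, adjusted p = 0.194). HS replicate 4 alone fell among the TN arrays. PON1 and PON3, the paraoxonases, enzymes carried on high-density lipoprotein, were 1.98 (SE 0.65, adjusted p = 0.307) and 1.59 (SE 0.47, adjusted p = 0.234) higher. TN replicate 1 was the highest TN array in both. TMEM163, a zinc transporter, lay between 5.57 and 7.85 in TN and between 7.91 and 9.02 in HS with no overlap, a difference of 1.40 (SE 0.39, adjusted p = 0.208). CILP, a matrix protein first described in cartilage, was 1.23 higher (SE 0.35, adjusted p = 0.219), with most of the difference on slide 1 (2.31 log2) and slide 2 (1.28 log2). Its 2 other probes of unrelated sequence both read 0.45, neither at an unadjusted p under 0.05.

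**Figure D2:**
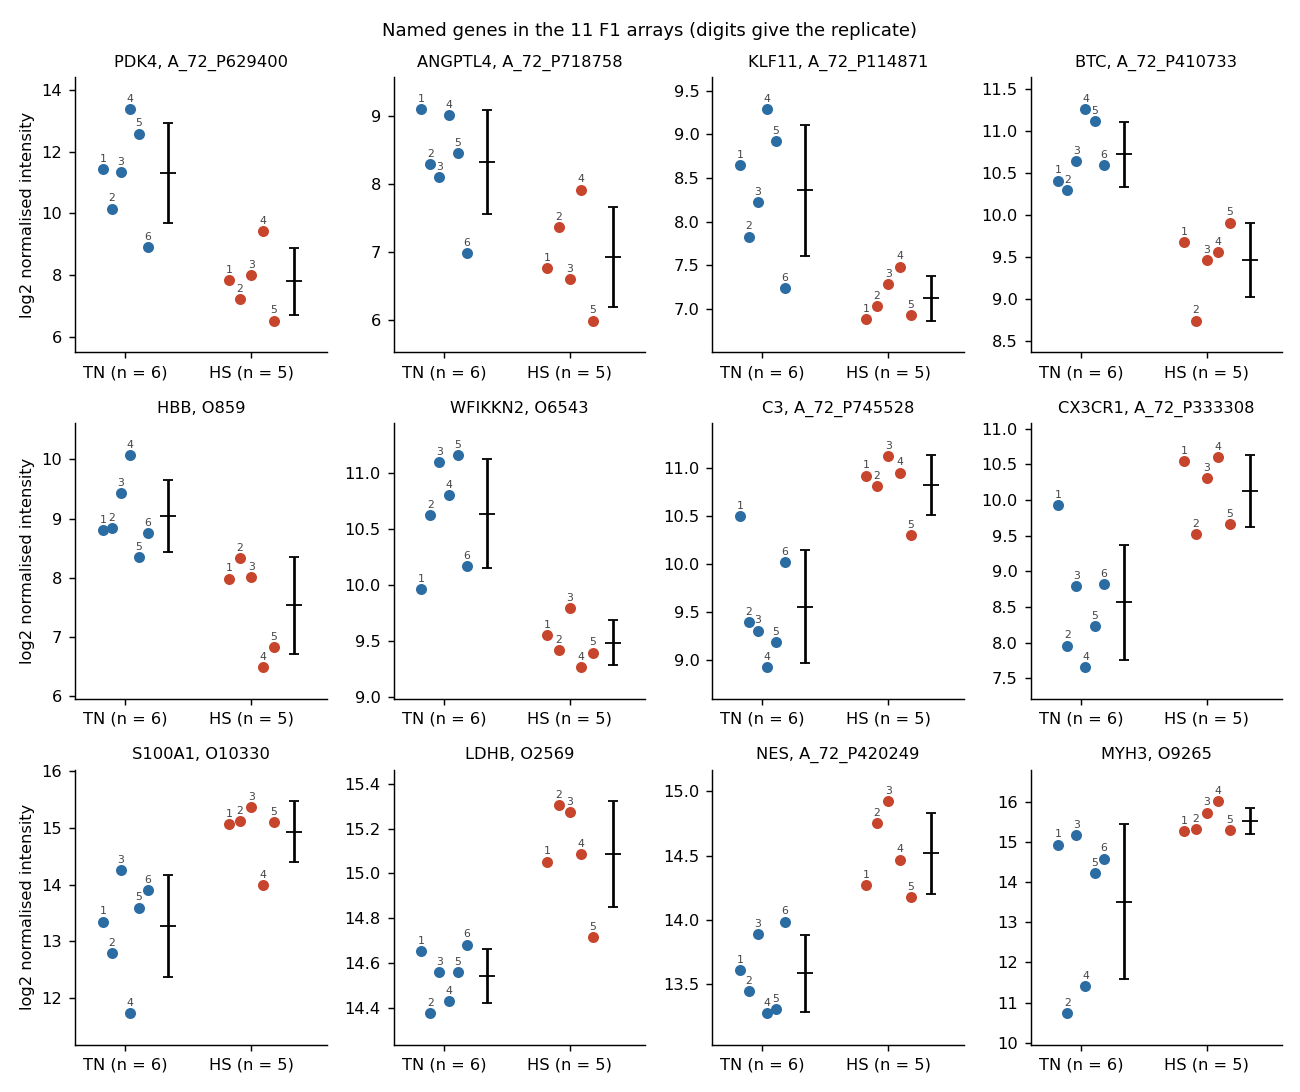
Log2 normalised intensity (y axes) of 12 named genes in the 6 TN and 5 HS arrays of F1 pigs (points, digits give the replicate), with mean and SD. BTC, HBB, WFIKKN2, LDHB, NES and MYH3 do not overlap between the groups, and TN replicate 6 lies with or next to the HS arrays in PDK4, ANGPTL4 and KLF11.

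The gene lists below were read with 1 probe per gene, the brightest kept probe, over 10784 genes. Of these, 9.27% had an unadjusted p under 0.05 (5.39% higher and 3.89% lower in HS), 1.23% did not overlap between the groups and the median difference was −0.01. No gene of any list passed the adjusted threshold, and no pathway list was tested. The mean levels of the cell type marker lists were among the 13 array measures with an exact permutation test. All lists were chosen with earlier results of these data known, so the p-values of the marker lists are descriptive only.

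Heat shock proteins and co-chaperones were divided. Of 40 genes measured, 22 were higher and 18 lower in HS, 5 and 1 of them at an unadjusted p under 0.05, with a median of 0.02. The cytosolic HSP90s differed by 0.32 for HSP90AB1 (SE 0.14, adjusted p = 0.506) and 0.17 for HSP90AA1 (SE 0.22, adjusted p = 0.920). The mitochondrial chaperonin HSPE1 was 0.31 higher (SE 0.12, adjusted p = 0.445), FKBP4, a co-chaperone of HSP90, 0.33 higher (SE 0.13, adjusted p = 0.396) and HSPA2, an HSP70 family member, 0.66 higher (SE 0.26, adjusted p = 0.435). The other kept probes of FKBP4 and HSPA2, of unrelated sequence, had the opposite sign. DNAJA4, a co-chaperone of HSP70, was at −0.51 (SE 0.22, adjusted p = 0.504). The constitutive HSPA8 read −0.16 (SE 0.14) and the small heat shock protein HSPB1 0.30 (SE 0.20), where HS replicate 2 read 16.64 and the other HS arrays 15.42 to 15.65. HSPA6, the strictly stress-inducible HSP70, lay between 8.41 and 10.93 in TN and between 7.28 and 10.31 in HS, a difference of −1.10 (SE 0.81, adjusted p = 0.811). No kept probe carried the names HSPA1A, HSPA1B, HSPA12A, HSPA12B, DNAJA1 or STIP1.

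Of 23 genes for folding and stress in the endoplasmic reticulum, 18 were lower, and the list median was −0.11. DNAJB11, a chaperone of that compartment, was at −0.43 (SE 0.19, adjusted p = 0.516). TN replicate 2 had the highest mean level of this list, at 12.16 against 11.36 to 11.54 on the other TN arrays, and without it the list median minus that of all genes was 0.01. Immediate-early genes, which respond within minutes to stimuli, were lower in 23 of 25 cases with a median of −0.27, against −0.09 relative to all genes without TN replicate 2. FOS, the best known of them, reached 13.40 on TN replicate 2 and 9.40 to 11.72 on the other TN arrays (difference −0.79, SE 0.74, adjusted p = 0.870). KLF2, of the same list, was at −0.30 (SE 0.14, adjusted p = 0.575).

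Fuel genes were mostly lower in HS, though not on every slide. Of 36 genes of fatty acid use and fasting, 28 were lower, 7 of them at an unadjusted p under 0.05, and the median was −0.15. Their mean level differed by −0.36, 0.08, −0.39 and −0.40 on slides 1 to 4. Beside PDK4 (brightest probe −3.52, SE 0.89) and ANGPTL4, these included MLYCD, which breaks down malonyl-CoA and so frees fatty acid oxidation (−0.78, SE 0.28, adjusted p = 0.360). ECHS1, an enzyme of beta-oxidation, went the other way, at 0.39 (SE 0.14, adjusted p = 0.373), with no overlap of the groups, and 1 of its 3 other kept probes had the same sign. Of 30 genes of glycolysis and glycogen use, 26 were lower with a median of −0.19, and their mean level differed by −0.20, 0.01, −0.30 and −0.05 on slides 1 to 4. PYGM, the muscle glycogen phosphorylase, differed by −0.38 (SE 0.16, adjusted p = 0.501), PGK1, a glycolytic kinase, by −0.32 (SE 0.14, adjusted p = 0.550) and GYS1, the glycogen synthase, by −0.27 (SE 0.13, adjusted p = 0.575). PHKA1, a regulatory subunit of phosphorylase kinase, was at −0.37 (SE 0.21, adjusted p = 0.702).

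LDHB, the heart-type lactate dehydrogenase subunit, was the clear exception among these. It lay between 14.38 and 14.68 in TN (median 14.56) and at 15.05, 15.31, 15.27, 15.09 and 14.71 in HS, with every HS array above every TN array. The difference was 0.54 (SE 0.14, adjusted p = 0.175), positive on all 4 slides, and all 7 of its other probes of unrelated sequence were higher by 0.42 to 0.55, each at an unadjusted p under 0.05.

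Nuclear genes of the respiratory chain gave small negative differences that rested on slides 3 and 4. Of 34 genes listed by their names for complex I, 28 were lower with a median of −0.10. In complexes III, IV and ATP synthase, 31 of 35 were lower with a median of −0.14. The mean level differed by 0.01, 0.15, −0.34 and −0.13 on slides 1 to 4 in the former and by −0.04, 0.02, −0.31 and −0.19 in the latter, and HS replicate 4 was the lowest array of both lists. ATP5MC1 and ATP5MC3, which encode the same ring subunit of ATP synthase, read −0.34 (SE 0.12, adjusted p = 0.344) and −0.30 (SE 0.11, adjusted p = 0.355), and ATP5F1B, its catalytic subunit, −0.32 (SE 0.12, adjusted p = 0.378). COX5B, of cytochrome c oxidase, lay between 16.66 and 16.87 in TN and between 16.47 and 16.62 in HS, a difference of −0.20 (SE 0.08, adjusted p = 0.411) with no overlap. NDUFA4, on the complex I list by its name only, read −0.32 (SE 0.12, adjusted p = 0.383). NDUFS1, a core subunit of complex I, read −0.30 (SE 0.14, adjusted p = 0.547). The 13 mitochondrially encoded subunits had a median of 0.00, with ND1 at 0.05 (SE 0.07) and ND2 at −0.04 (SE 0.15), which is within their spread, and the signs of both turned under at least 1 other processing. Of the 19 other kept ND1 probes, only 2 had the same sign, and the 12 of unrelated sequence read between −0.10 and −0.02.

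Of 21 genes of the pyruvate dehydrogenase complex and TCA cycle, 19 were lower with a median of −0.17, and the mean level differed by −0.04, 0.06, −0.36 and −0.18 on slides 1 to 4. IDH3A, a subunit of isocitrate dehydrogenase, read −0.39 (SE 0.15, adjusted p = 0.428), MDH2, the mitochondrial malate dehydrogenase, −0.30 (SE 0.12, adjusted p = 0.495) and SUCLA2, a succinate-CoA ligase subunit, −0.32 (SE 0.14, adjusted p = 0.542). PDP1, the phosphatase that reverses what PDK4 does, was higher by 0.45 (SE 0.18, adjusted p = 0.438). PDHA1, the enzyme subunit on which both act, differed by −0.11 at its brightest probe (SE 0.26, adjusted p = 0.967). Its 4 other kept probes, of unrelated sequence, read between −0.47 and 0.03, 3 of them lower and 3 at an unadjusted p under 0.05. DLD, shared with other dehydrogenases, differed by −0.21 (SE 0.16, adjusted p = 0.831).

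Antioxidant enzymes went both ways, with 19 of 34 higher and a median of 0.03. GSTM3, a glutathione transferase, was 0.80 higher (SE 0.21, adjusted p = 0.194), PRDX5, a peroxiredoxin, 0.32 higher (SE 0.11, adjusted p = 0.310) and SOD1, the cytosolic superoxide dismutase, 0.20 higher (SE 0.09, adjusted p = 0.534). NQO1, a quinone reductase, was at −0.66 (SE 0.25, adjusted p = 0.403).

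Of 15 genes known to respond to glucocorticoids, 11 were lower, with a median of −0.36. Beside MT1A, PER1, which is also a clock gene, read −0.88 (SE 0.33, adjusted p = 0.400) and KLF9 −0.54 (SE 0.22, adjusted p = 0.454), whereas SGK1, a kinase, was 0.50 higher (SE 0.21, adjusted p = 0.506). FKBP5, a chaperone cofactor that glucocorticoids induce, was at −0.41 (SE 0.26, adjusted p = 0.747). Of the 16 clock genes, 9 were lower with a median of −0.06, and CIART, a clock repressor, lay between 7.51 and 7.99 in TN and between 6.90 and 7.41 in HS (−0.54, SE 0.19, adjusted p = 0.358), without overlap.

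In protein breakdown and growth control, 16 of 28 genes were higher with a median of 0.00. FBXO32, the muscle atrophy ligase atrogin-1, was 0.73 higher (SE 0.27, adjusted p = 0.387), positive on all 4 slides, and its 4 other kept probes were all higher at an unadjusted p under 0.05. The partner ligase TRIM63 differed by −0.12 (SE 0.19, adjusted p = 0.942). IGFBP5, a binding protein of insulin-like growth factors, was 0.65 higher (SE 0.29, adjusted p = 0.545). MLST8, a subunit of both mTOR complexes, lay between 8.35 and 8.81 in TN and between 8.14 and 8.33 in HS, a difference of −0.38 (SE 0.12, adjusted p = 0.279) without overlap, and EIF4EBP1, the translation repressor that mTOR inhibits, read −0.31 (SE 0.12, adjusted p = 0.400). Cytosolic ribosomal proteins were higher in 59 of 69 cases, 18 of them at an unadjusted p under 0.05, with a median of 0.12. RPL13A was 0.38 higher (SE 0.11, adjusted p = 0.232), RPS21 0.23 (SE 0.07, adjusted p = 0.280), RPL38 0.20 (SE 0.07, adjusted p = 0.305) and RPS27A 0.22 (SE 0.07, adjusted p = 0.323). The 36 proteasome subunits had a median of −0.04.

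Muscle genes linked to development and regeneration had a median of 0.00 over 21 genes, yet 8 were higher at an unadjusted p under 0.05 and 5 did not overlap between the groups, against 5.39% and 1.23% of all genes. NES, the intermediate filament protein nestin, lay between 13.28 and 13.99 in TN (median 13.53) and at 14.27, 14.75, 14.92, 14.47 and 14.18 in HS, a difference of 0.93 (SE 0.22, adjusted p = 0.136), and its 6 other kept probes, none of which shared a 20-base run with it, were higher by 0.64 to 0.96. CHRNG, the fetal subunit of the muscle acetylcholine receptor, was 1.11 higher (SE 0.29, adjusted p = 0.194) and NCAM1, a cell adhesion molecule of regenerating and denervated fibres, 0.62 higher (SE 0.17, adjusted p = 0.201), both without overlap, as was CHRNA1, another subunit of that receptor (1.08). MYBPH, a myosin-binding protein, was at −0.56 (SE 0.18, adjusted p = 0.271).

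MYH3, the embryonic myosin heavy chain, read 14.94, 10.74, 15.18, 11.42, 14.22 and 14.59 in TN and 15.27, 15.33, 15.73, 16.02 and 15.30 in HS. No HS array lay below 15.27, whereas TN replicates 2 and 4 were far below the other TN arrays. The difference was 2.02 (SE 0.93, adjusted p = 0.562), and within slides it ran from 0.36 on slide 1 to 5.00 on slide 2. The adult myosins gave small values at their brightest probes: MYH7, the slow isoform, differed by 0.08 (SE 0.11) and MYH4, the fastest, by −0.02 (SE 0.05). The 7 other MYH4 probes of unrelated sequence were all lower (−0.48 to −0.06), 3 of them at an unadjusted p under 0.05. Slow fibre genes were higher in 9 of 12 cases with a median of 0.08, and fast fibre genes lower in 13 of 15 with a median of −0.04. CASQ2, the calcium-storing calsequestrin of slow and cardiac muscle, was 0.92 higher (SE 0.36, adjusted p = 0.445) and 2.55 higher on slide 2 alone, whereas the 20 calcium handling genes had a median of −0.05. SLN, the calcium pump inhibitor sarcolipin, differed by 0.03 (SE 0.05). At these brightest probes, the signs of MYH7, MYH4 and SLN turned under at least 1 other processing.

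**Figure D3:**
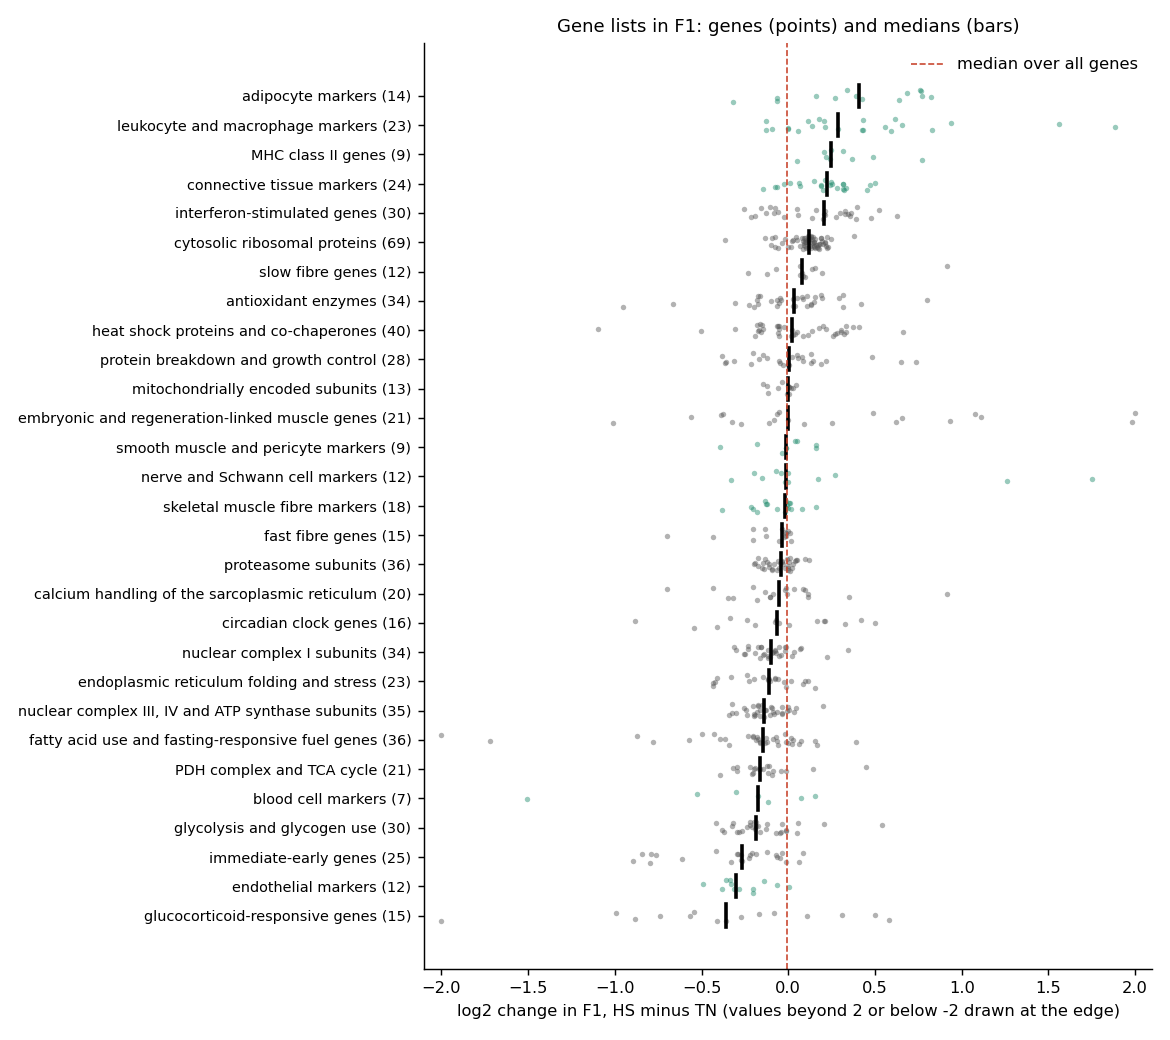
Log2 difference between HS and TN in F1 (x axis) for the genes of each list (points, number measured in parentheses, cell type markers in green) with the list median (black bar) and the median over all genes (dashed line); values beyond 2 or below −2 are drawn at the edge. Adipocyte markers have the highest median, 0.41, and glucocorticoid-responsive genes the lowest, −0.36.

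Muscle holds other cells, and in such tissue pieces more cells of a type cannot be told apart from more RNA per cell. Adipocyte markers were higher in 11 of 14 cases, 6 of them at an unadjusted p under 0.05, with a median of 0.41. Their mean level lay between 9.02 and 9.96 in TN and between 9.32 and 10.06 in HS (exact permutation p = 0.0974, adjusted over 13 measures 0.259, above the TN mean on 4 of 5 HS arrays). ADIPOQ, the adipocyte hormone adiponectin, was 0.82 higher (SE 0.33, adjusted p = 0.448), CIDEA and CIDEC, lipid droplet proteins, 0.76 (SE 0.23, adjusted p = 0.248) and 0.76 (SE 0.29, adjusted p = 0.410), and GPAM, an enzyme of triglyceride synthesis, was at −0.32 (SE 0.11, adjusted p = 0.355). The list differed between slides, by 0.92 on slides 1 and 2, 0.05 on slide 3 and −0.19 on slide 4.

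Leukocyte and macrophage markers were higher in 19 of 23 cases with a median of 0.29, and MHC class II genes in 9 of 9 with a median of 0.24. The sign was not the same on every slide: on slides 1 to 4 the mean level differed by −0.22, −0.07, 1.17 and 0.14 for leukocytes and by −0.56, −0.01, 0.85 and 0.37 for MHC class II. Their mean levels overlapped, at 9.31 to 10.79 in TN and 9.91 to 10.72 in HS for leukocytes (exact permutation p = 0.206, adjusted 0.334), and at 10.69 to 12.16 in TN and 11.53 to 12.13 in HS for MHC class II (exact permutation p = 0.288, adjusted 0.374). ACP5, a phosphatase of macrophages and osteoclasts, was 1.89 higher at its brightest probe (SE 0.52, adjusted p = 0.208) and 0.66 higher at A_72_P444003, its probe with the smallest p, and the complement genes C1QB and C1QA 0.94 (SE 0.34, adjusted p = 0.373) and 0.62 (SE 0.28, adjusted p = 0.548) higher. SLA-DOA, a class II gene, was 0.77 higher (SE 0.32, adjusted p = 0.483). LYZ, the macrophage lysozyme, split the TN arrays, with replicates 1, 2 and 6 at 12.95, 13.45 and 12.20 and replicates 3, 4 and 5 at 9.37, 9.25 and 8.62. All HS arrays lay between 11.04 and 13.55, and the difference was 1.56 (SE 0.93, adjusted p = 0.721). CD74, the class II chaperone, differed by 0.20 (SE 0.24, adjusted p = 0.904). The part of leukocytes in the differences of C3, CX3CR1 and IL18 was not tested. Interferon-stimulated genes were higher in 20 of 30 cases with a median of 0.20, none at an unadjusted p under 0.05.

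Connective tissue markers were higher in 20 of 24 cases with a median of 0.22. COL3A1, a fibrillar collagen, read 14.99, 15.01, 15.03, 15.03, 15.05 and 15.27 across TN and 15.74, 15.36, 15.60, 15.62 and 15.27 in HS, where TN replicate 6 and HS replicate 5 nearly met (0.46, SE 0.16, adjusted p = 0.355). DCN, SPARC and COL6A2, also of the matrix, were 0.25 (SE 0.11), 0.28 (SE 0.13) and 0.31 (SE 0.15) higher, and COL1A1 0.32 (SE 0.26, adjusted p = 0.839). Endothelial markers were lower in 11 of 12 cases with a median of −0.30, and their mean level lay between 10.08 and 10.62 in TN and between 9.75 and 10.28 in HS (exact permutation p = 0.0649, adjusted 0.259, below the TN mean on 4 of 5 HS arrays). VWF read −0.34 (SE 0.14), CDH5 −0.38 (SE 0.17), PECAM1 −0.33 (SE 0.16) and KDR, a receptor of vascular endothelial growth factor, −0.49 (SE 0.24). The other kept probe of VWF had the opposite sign, as had those of NDUFS1 and C1QB and the COL6A2 probe of unrelated sequence (−0.04). Of the 7 other SPARC probes, 5 had the same sign and none an unadjusted p under 0.05 (−0.12 to 0.23).

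Blood cell markers, of which 7 of 13 were measured, had the lowest exact p among the 13 array measures. Their mean level lay between 7.72 and 8.05 in TN and between 7.25 and 7.68 in HS, without overlap, a difference of −0.34 (SE 0.09, exact permutation p = 0.00433, the smallest that 5 against 6 arrays allow, adjusted 0.0563, lower on all 5 HS arrays). HBB had the largest difference of the 7 genes, at −1.51, and was the only one at an unadjusted p under 0.05. The median of the 7 was −0.18, and 2 of them were higher, so the mean level leaned on HBB. Nerve markers had a median of −0.01, with 2 neurofilament genes apart from the rest: NEFH was 1.75 higher (SE 0.66, adjusted p = 0.398), from −1.14 on slide 1 to 3.64 on slide 3, and NEFM 1.26 higher (SE 0.53, adjusted p = 0.493). The 2 other kept NEFH probes, of unrelated sequence, were higher by 0.04 and 1.18. NEFM was well above background on 4 of the 6 TN arrays and on all 5 HS arrays. Smooth muscle and pericyte markers had a median of −0.01, with MCAM at −0.39 (SE 0.13, adjusted p = 0.311). The 18 skeletal muscle fibre markers had a median of −0.02.

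To read the F1 pigs against the other breeds, probes were chosen on the Creole and Large White arrays alone, which share no array with F1. There, 5050 of 41517 probes (12.2%) passed for temperature: HS was higher at 2361 and lower at 2689. In F1, 87.7% of the 5050 probes had the same sign, against 62.0% over all probes. The probes higher in the other breeds (median 0.45 there) had a median of 0.24 in F1, and 29.1% of them were higher at an unadjusted p under 0.05, against 4.93% of all probes. The probes lower in the other breeds (median −0.32) had a median of −0.12 in F1, and 13.8% of them were lower at an unadjusted p under 0.05, against 3.36% of all probes. The medians of the choosing breeds are inflated by the choice, and no test was made.

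With Creole read against 1057 probes chosen on F1 and Large White (2.55% of those tested), 98.0% had the same sign, with medians of 0.46 and −0.31, and with Large White read against 2137 probes chosen on F1 and Creole (5.15%), 95.1%, with medians of 0.34 and −0.29. The shares over all probes were 71.6% and 71.8%, above the 62.0% of F1, and the lists differ in size, so the 3 shares cannot be ranked. On each F1 array, the mean of the 2361 higher minus that of the 2689 lower probes was taken, so only differences between arrays can be read from it. It was 0.28 ± 0.21 (SD, n = 5) in HS and −0.17 ± 0.37 (SD, n = 6) in TN. The groups overlapped: TN replicate 2 reached 0.38, TN replicates 1 and 6 read 0.04 and 0.01, and HS replicate 5 read 0.00. With 1 F1 array left out, the share with the same sign ran from 81.5% without HS replicate 4 (57.8% over all probes) to 91.98% without TN replicate 2 (67.1% over all probes).

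**Figure D4:**
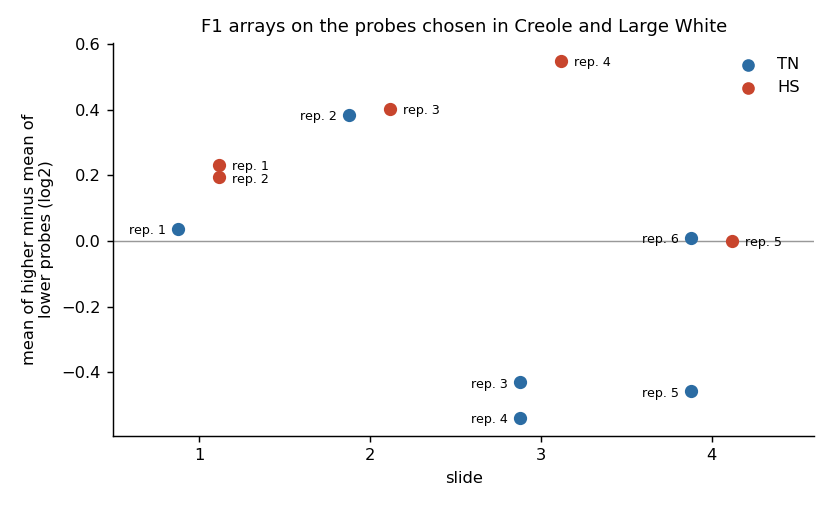
Mean log2 level of the 2361 probes higher with heat in Creole and Large White minus that of the 2689 lower ones (y axis), on each F1 array by slide (x axis), with replicate numbers. HS lies above TN on slides 1 and 3, the arrays of slide 2 are nearly level at 0.40 and 0.38, and on slide 4 HS replicate 5 lies beside TN replicate 6.

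The difference between the F1 change and the mean change of Creole and Large White passed at 0 of 41517 probes (limma, smallest adjusted p = 0.804, 2276 probes at an unadjusted p under 0.05). It passed at 0 probes against Creole alone (2078 at an unadjusted p under 0.05) and at 0 against Large White alone (1963). On simulated arrays, the comparison with the mean recovered 11.5% of 200 probes changed by 0.5 log2, and 79.5% of 200 changed by 1 log2. The absence of passing probes therefore does not show that the changes were equal. For STRA6 at O11448, the change was 1.04 in Creole (SE 0.21, adjusted p = 0.0225) and 0.68 in Large White (SE 0.21, adjusted p = 0.117), and the F1 change exceeded their mean by 0.54 (SE 0.27, adjusted p = 0.804). At A_72_P102201, the STRA6 probe of unrelated sequence, HS was lower in Creole (−0.68, adjusted p = 0.0311) and read −0.60 in Large White (adjusted p = 0.0845). PDK4 differed by −1.52 in Creole and −0.76 in Large White (F1 minus their mean −2.37, SE 1.02, adjusted p = 0.804). The estimates for PON1, −1.05 in Creole and −0.53 in Large White against 1.98 in F1, lay furthest apart among the largest differences (2.77, SE 0.79, adjusted p = 0.804), and PON3 differed by 1.93 (SE 0.56, adjusted p = 0.804), but neither passed. FBXO32 read −0.40 in Creole and −0.02 in Large White (F1 minus their mean 0.94, SE 0.33, adjusted p = 0.804). For BTC, HBB, C3, CLU and IL18, the F1 value minus the mean of the other breeds lay between −0.43 and −0.08, at an adjusted p of 0.845 or more.

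**Figure D5:**
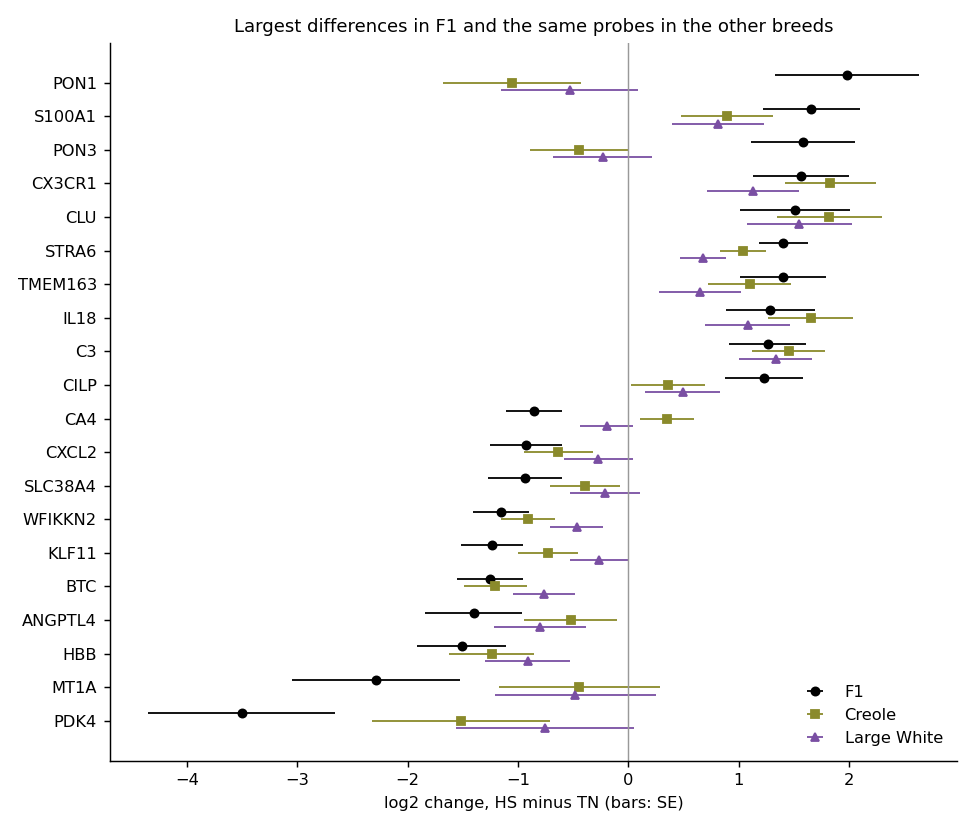
Log2 difference between HS and TN (x axis, bars SE) for the 10 genes with the largest positive and the 10 with the largest negative differences in F1 (circles) at an unadjusted p under 0.01, each by its probe with the smallest p, with the same probes in Creole (squares) and Large White (triangles). These genes were chosen on the F1 values, and PON1, PON3 and CA4 are those where at least 1 other breed has the opposite sign.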

How the data were processed

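Total RNA of 35 longissimus dorsi samples was labelled with Cy3 and hybridised by the authors to 1-colour Agilent porcine arrays, quantified with Feature Extraction 10.10.1.1. In the deposited scanner output, spots are given as intensity on a linear scale, and the deposited value table holds log2 values that the authors quantile-normalised and filtered. Median intensity was quantile-normalised without background subtraction, log2 was taken and 105 outlier spots were set to missing. No spot was saturated. A probe was kept where 75% or more of any 1 group's arrays had it well above background (41517 of 60305). A single symbol was found for 26740 probes (44.3%) through accessions in the reference table (Sscrofa11.1, names only) or the file's own name. No position is given.

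Groups came from the labels. Limma 3.58.1 in R 4.3.3 fitted 1 mean per breed and temperature over 35 arrays, with Benjamini-Hochberg adjustment at 0.05 over all kept probes. The study's random terms (pen, slaughter day, parents) could not be taken from the labels and were omitted. Array measures, among them the mean level of each cell type marker list, had exact 2-sided permutation tests. Fits were tested on simulated data. The members and lists were chosen with earlier results of these data known. Named genes are every probe past the threshold, the 10 largest differences each way at an unadjusted p under 0.01 among named probes well above background on all 11 F1 arrays (1 probe per gene, the smallest p), up to 4 genes per list with the smallest unadjusted p under 0.05, and a fixed set of genes. Alternatives covered scaling, background, filter, slide, array weights, brightness, 1 probe per gene, and each F1 array left out. The number of arrays limits the precision.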

Additional observations from a re-analysis of the deposited data

Results flagged for a closer look

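Each value of the named probes, the array measures and the gene list levels was checked, in the 6 TN and the 5 HS arrays separately, for a sample far from the others. Of 280 such checks, 14 found one, which is no more than the share of about 1 in 20 that chance gives. Among the HS arrays, S100A1 read 13.99 on replicate 4 (others 15.07 to 15.36), PON3 read 7.25 on replicate 5 (others 8.19 to 8.51) and HSPB1 read 16.64 on replicate 2 (others 15.42 to 15.65).

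On TN replicate 2, several values stood apart, though values of the same array are not independent. CXCL2 read 9.53 (others 7.73 to 8.27) and MYH7 18.35 (others 18.63 to 18.79). The mean level of endoplasmic reticulum folding and stress genes was 12.16 (others 11.36 to 11.54), that of antioxidant enzymes 12.33 (others 11.99 to 12.11), that of calcium handling genes 13.19 (others 13.57 to 13.71) and that of slow fibre genes 15.46 (others 15.96 to 16.09). This array also had the lowest array weight of the F1 arrays, 0.399.

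On TN replicate 6, ANGPTL4 at its brightest probe read 9.01 (others 10.94 to 12.04), NQO1 8.98 (others 9.62 to 9.86) and COL3A1 15.27 (others 14.99 to 15.05). On TN replicate 4, ECHS1 read 14.21 (others 14.45 to 14.57). The median local background was 29.0 on TN replicate 1 (others 44.0 to 48.0), and the HS arrays of the same slide were at 29.0 and 32.0. No named probe had an F1 change that differed from the mean of the other breeds at an adjusted p under 0.05.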

How the results depend on the processing

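The direction of STRA6 at O11448 held under every alternative that kept this probe (all but 1 probe per gene), but the number of probes passing did not. It was 0 with the F1 arrays alone, with 75th percentile scaling of the processed signal and with scaling to the spike-in controls, 1 with slide as a block, 1 with probes well above background on all 11 F1 arrays, 1 with 1 probe per gene (ENO2, since the brightest STRA6 probe is A_72_P102201) and 714 with array weights. Leaving out 1 F1 array gave 0 to 55, the most without TN replicate 6, 12 without TN replicate 1, 0 without HS replicate 1 or 3 or TN replicate 4, and 1 unnamed probe in place of STRA6 without HS replicate 4. Among the fits with 1 array left out, the overlapping STRA6 probe kept its call only without HS replicate 2, TN replicate 1 or TN replicate 6. Probes at an unadjusted p under 0.05 numbered 2115 with spike-in scaling, 7628 with array weights and 1011 with 1 probe per gene, and 2452 to 3993 with 1 array left out. The cause was not tested. No probe passed for F1 against the other breeds under any alternative run, and the share with the same sign kept within 81.5% to 91.98% with 1 array left out. With array weights, PDK4 (−3.87, adjusted p = 0.0136), KLF11, WFIKKN2, BTC, LDHB, C3 and NES were among those that passed. Signs turned at probes near 0, each the brightest of its gene. SLN (−0.088, −0.029 and −0.059) and ND1 (−0.068, −0.045 and −0.075) turned with 75th percentile, median and spike-in scaling. MYH7 (−0.008) turned with spike-in scaling and ND2 (0.015) with brightness as a covariate. With 1 array left out, MYH4 (−0.027 to 0.005), ND2 (−0.062 to 0.016) and PDHA1 (−0.252 to 0.060) turned. No paired analysis was possible because the labels give no replicate numbers that the groups share. The median absolute F1 difference, 0.10, lay below its median SE, 0.14.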

Other observations

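Since STRA6 imports retinol, other genes of retinoid transport, metabolism and signalling were read in F1, a list chosen after the values of STRA6 were seen. Of 33 genes listed, 21 were measured, 12 higher and 9 lower in HS, with a median of 0.06, and none passed. CRABP2, a retinoic acid carrier, was 0.48 higher (SE 0.20, adjusted p = 0.487) and RARB, a retinoic acid receptor, 0.38 higher (SE 0.16, adjusted p = 0.493). FABP5, which carries fatty acids and retinoic acid, was at −0.76 (SE 0.33, adjusted p = 0.526), and RBP4, the carrier that STRA6 binds, at −0.13 (SE 0.19, adjusted p = 0.933).

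Probes were less independent than their number implies: the 41517 kept probes held 39822 distinct sequences, and 3213 of them had a twin of identical sequence.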
